A study of Mus musculus with 6 samples.

Results

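Mismatch repair genes were examined in RNA-Seq of germinal center (GC) and resting B cells of mouse Peyer's patches. The 6 genes were the MutS homologs Msh6 and Msh3, the MutL homologs Pms2, Pms1 and Mlh3, and the exonuclease gene Exo1. They were chosen by their role in repair, with earlier results of these data known, and were taken by gene symbol from 39179 gene rows. All 6 were found. The study asked where the deaminase AID mutates the genome of GC B cells and how those lesions are repaired. GC B cells were sorted as Fas+GL7+ and resting B cells, called naive in the labels, as Fas-GL7-. Both came from the ileum of WT C57BL/6 female mice aged 12 weeks. Each population had 3 biological replicates, each a pool of 5 mice, so that differences between single mice were averaged within a pool. All pools carried the WT genotype, so the comparison is between cell populations and not between repair genotypes.

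Mismatch repair removes bases that pair wrongly in DNA. MutS dimers find the mistake: Msh6 or Msh3 binds a shared MutS partner, and the Msh6 dimer recognizes single-base mismatches whereas the Msh3 dimer favors small loops of unpaired bases. MutL dimers act next, in which Pms2, Pms1 or Mlh3 binds a shared MutL partner, and the Pms2 dimer nicks the strand to be removed. Exo1 digests that strand, and the clamp Pcna, its loader, DNA polymerase delta and a ligase fill and seal the gap. In GC B cells the same machinery meets the U:G pairs that AID makes. There, Msh6 and Exo1 are known to take part in somatic hypermutation, in which the gap can be filled by the error-prone polymerase eta, encoded by Polh.

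Levels are given as TPM, a measure of transcript abundance per length, computed from the deposited values so that each pool sums to the same total, and changes as log2 fold changes of TPM + 1, GC minus naive, from limma. Read totals were not used here. The smallest steps between low values gave about 9900000 to 10900000 reads in the GC pools and 9700000 to 16100000 in the naive pools. The sort was reflected in its own marker, with Fas at 114 ± 5.55 TPM in GC and 3.22 ± 0.314 TPM in naive pools (SD, n = 3), and Bcl6, the GC transcription factor, at 249.8 ± 8.14 and 49.2 ± 2.33 TPM. Of 12785 genes tested, 65.6% passed an adjusted p under 0.05, 35.5% higher and 30.1% lower in GC, and the median log2 change was 0.03. Against such a background a change in a single gene is not unusual. All 6 GC markers listed were higher and all 6 naive markers lower in GC pools. Markers of 10 epithelial genes summed to 53.8 to 116.4 TPM in GC and 132.9 to 170.1 TPM in naive pools, with 5 of 9 tested lower and 2 higher in GC. T cell markers summed to at most 3.62 TPM and myeloid markers to at most 7.07 TPM in any pool, and of these lists 4 of 6 and 3 of 5 genes stayed under 1 TPM in every pool. The part of other cells in the changes of the repair genes was not tested. In bulk RNA, fewer cells that express a gene and less RNA of it per cell cannot be told apart.

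Both MutS genes were about 4-fold higher in GC B cells, by 4.19-fold for Msh6 and 4.27-fold for Msh3. Exo1 was higher by 15.9-fold and Pms2 by 1.49-fold, whereas Pms1 and Mlh3 did not pass the test. Thus 4 of 6 genes rose and none fell, where 35.5% of all tested genes rose. With pools scaled to housekeeping genes 3 rose and Mlh3 was called lower. Under that scaling 2436 of 12785 tested genes were called higher and 6719 lower. Msh6, Msh3, Exo1 and Pms2 had GC and naive pools that did not overlap, beside 70.7% of all tested genes, and 37.8% for those higher in GC. All 6 passed the filter of at least 1 TPM in at least 3 pools, but Exo1 passed it only through the GC pools.

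**Figure D1:**
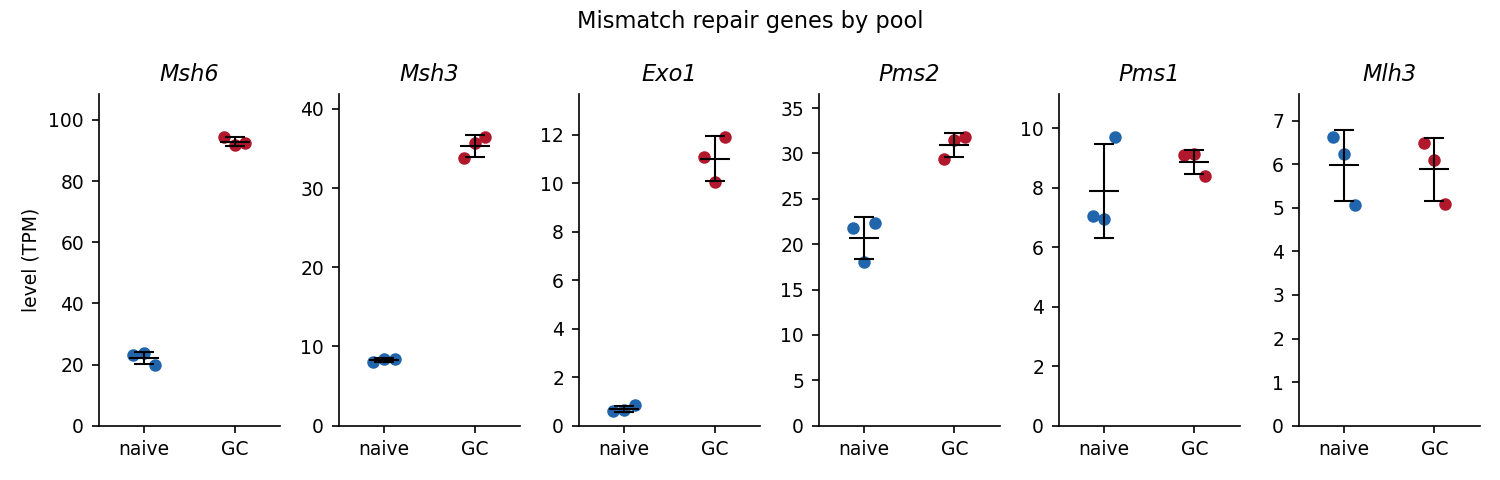
Level of each of the 6 mismatch repair genes in TPM (vertical axis, from 0, a separate scale for each gene) in the 3 naive pools (blue) and the 3 GC pools (red), with 1 point per pool and bars for the mean and SD. Msh6, Msh3, Exo1 and Pms2 have GC pools that all sit above the naive pools, whereas the pools of Pms1 and Mlh3 overlap.

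Msh6 was the highest of the 6 genes in both populations. Its 3 GC pools held 94.5, 91.8 and 92.3 TPM. The 3 naive pools held 23.0, 23.7 and 19.9 TPM. Every GC pool was higher than every naive pool, and the mean was 92.9 ± 1.42 TPM in GC and 22.2 ± 2.03 TPM in naive cells. The log2 change was 2.02 (95% interval 1.84 to 2.20, SE 0.0755), with an adjusted p of 2.13e-06 in limma. In GC pools the mean level exceeded 85.9% of tested genes, and in naive pools 54.5%.

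Msh3 was measured at 33.8, 35.6 and 36.5 TPM in the GC pools. In the naive pools it was at 7.98, 8.42 and 8.40 TPM. The groups did not overlap, and the spread within each was small (35.3 ± 1.39 TPM in GC, 8.27 ± 0.25 TPM in naive cells). The log2 change of 1.97 (95% interval 1.80 to 2.14, SE 0.0697) had an adjusted p of 1.69e-06 in limma. Msh6 and Msh3 together summed to 128 ± 0.685 TPM in GC and 30.4 ± 1.96 TPM in naive cells. Msh6 made up 72.5% of that sum in GC and 72.8% in naive cells.

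The ratio of Msh6 to Msh3 within a pool was 2.80, 2.58 and 2.53 in GC B cells and 2.88, 2.81 and 2.36 in naive B cells. These values overlapped, and the log2 difference was -0.02, with pairs of pools ranging from -0.18 to 0.24 (exact two-sided permutation test over pools, p = 0.8). With 3 against 3 pools, the smallest p this test can give is 0.1, and a p above the threshold does not show that the ratio was equal. Adding 1 to both levels, or leaving out GC pool 3, naive pool 1 or naive pool 2, turned the sign of this small difference, which was then at most 0.0531.

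The start-site regions of Msh6 and Pms2 are shown because they differ in exact matches to the sequence words below. These genes, similar in level in naive pools, also had log2 changes of different size. Sequences are from RefSeq on GRCm38.p6, run 5′ to 3′ on the strand of the gene, and cover 250 bases before and 30 bases from the annotated start. They lie at chr17:87974800-87975079 on the plus strand for Msh6 and chr5:143909751-143910030 on the plus strand for Pms2. Capitals mark matches on either strand to an E2F-type word (TTTGGCGC, TTTCCCGC, TTTGCCGC or TTTCGCGC) and to the GC box GGGCGG, and where matches overlap they form 1 run of capitals.
Msh6: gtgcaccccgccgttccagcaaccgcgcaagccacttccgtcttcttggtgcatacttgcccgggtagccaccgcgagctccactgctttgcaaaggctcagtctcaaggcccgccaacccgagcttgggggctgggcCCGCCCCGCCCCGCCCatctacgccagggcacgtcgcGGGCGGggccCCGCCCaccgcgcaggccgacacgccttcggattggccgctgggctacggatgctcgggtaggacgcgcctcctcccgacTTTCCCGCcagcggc
Pms2: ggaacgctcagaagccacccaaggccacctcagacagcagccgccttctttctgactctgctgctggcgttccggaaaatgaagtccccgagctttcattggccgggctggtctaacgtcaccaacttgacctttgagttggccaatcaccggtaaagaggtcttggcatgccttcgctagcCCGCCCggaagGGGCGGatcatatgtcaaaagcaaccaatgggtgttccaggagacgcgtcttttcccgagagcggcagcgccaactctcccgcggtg
Msh6 held 1 E2F-type word, at positions 16 to 23 counted from 1 at the start. No exact match was found in the windows of Pms2, Pms1 or Mlh3, and those of Msh3 and Exo1 were not searched. Words 1 base away were not counted. Among such words, the window of Pms2 holds tttcccga and tctcccgc, each 1 base from the word matched in Msh6. It also holds gcgccaac, on the other strand, and the window of Pms1 holds attcccgc. An exact match was present in the first window of 2.16% of 27025 genes. GC boxes numbered 5 in Msh6, 2 in Pms2, 1 in Pms1 and 0 in Mlh3, and 34.9% of genes held at least 1. The word CCAAT, searched on both strands, was found 3 times in Pms2, 2 times in Pms1, and 1 time each in Msh6 and Mlh3, and in 36.6% of genes. The words were chosen after the expression values had been seen, and Msh6 and Pms2 were picked because they differ. A link between the words and the log2 changes was therefore not tested. These are matches of letters, not measured binding.

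Exo1 showed the largest change of the 6 genes. The GC pools held 11.1, 10.1 and 11.9 TPM. The naive pools held 0.594, 0.643 and 0.839 TPM. The lowest GC pool was 12.0-fold above the highest naive pool. At the estimated depth these values correspond to about 387 to 466 reads per GC pool and 28 to 40 per naive pool, so the naive level rested on few reads. The log2 change of TPM + 1 was 2.83 (95% interval 2.53 to 3.12, SE 0.121), with an adjusted p of 3.86e-06 in limma. Exo1 passed the filter only through its GC pools, so this p is not independent of the filter. The added 1 shrinks the change of a low gene, and with an added 0.1 it was 3.82. The ratio of Exo1 to Msh6 was 0.117, 0.110 and 0.129 in GC pools and 0.0259, 0.0272 and 0.0422 in naive pools. The pools did not overlap (exact permutation p = 0.1, the smallest the design allows, and 0.133 after adjustment over 4 ratios). The log2 difference of this ratio was 1.93, and 0.81 with 1 added to both levels.

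The MutL genes, which act after mismatch recognition, had log2 changes between -0.02 and 0.56. Pms2, the endonuclease partner, was at 29.4, 31.4 and 31.8 TPM in GC pools. It was at 21.7, 18.0 and 22.3 TPM in naive pools. All GC pools were above all naive pools, and the mean was 30.9 ± 1.33 TPM in GC and 20.7 ± 2.31 TPM in naive cells. The log2 change was 0.56 (95% interval 0.33 to 0.79, SE 0.0954), with an adjusted p of 0.00219 in limma. This change lay within the middle 50% of all tested genes, whose log2 changes ran from -0.49 to 0.59. When the pools were instead scaled to 12 housekeeping genes, which lowers the log2 changes of all genes by a median of 0.46, Pms2 changed by 0.09 with an adjusted p of 0.464. Of these 12 genes, 6 were themselves called higher in GC in the main analysis, among them Gapdh (2.92-fold), Pgk1 (2.32-fold) and Hprt (2.12-fold), 1 was lower and 5 did not pass the test. Under that scaling, 26.6% of calls over all genes were higher in GC, whereas 54.1% were in the main analysis.

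**Figure D2:**
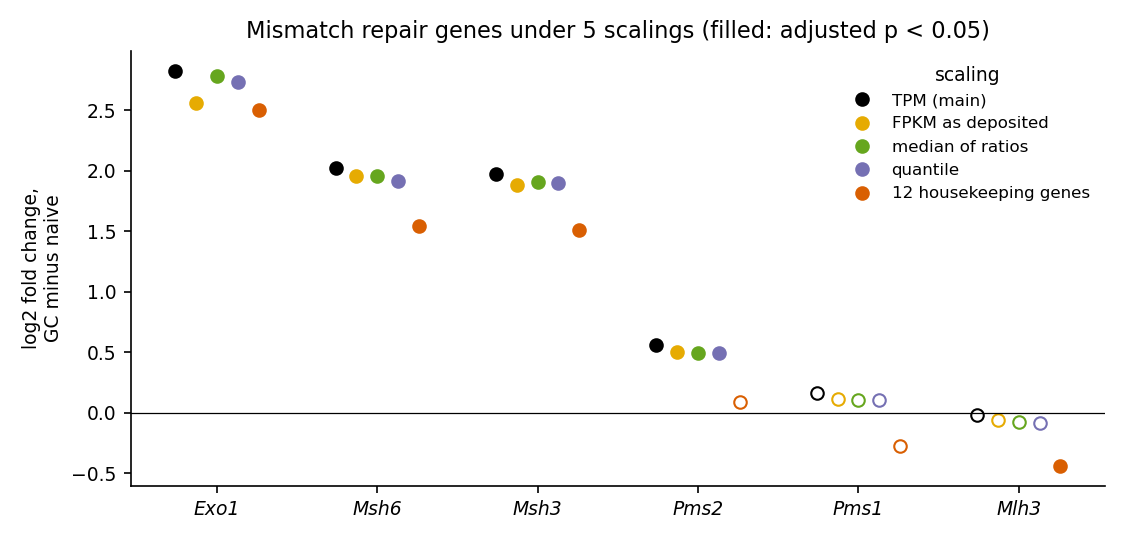
Log2 fold change of GC over naive (vertical axis) of each of the 6 genes under 5 ways of scaling the pools (colors). Filled points passed an adjusted p under 0.05 in limma, and open points did not. Exo1, Msh6 and Msh3 stay well above 0 in every scaling, Pms2 falls to 0.09 with housekeeping scaling, and only there Mlh3 passes the test, at -0.44.

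Pms1, a MutL gene whose role in mammalian repair is not well defined, had GC levels of 9.08, 9.12 and 8.39 TPM. Its naive levels were 7.03, 6.94 and 9.71 TPM. The third naive pool was above every GC pool. The log2 change was 0.16 (95% interval -0.18 to 0.50), with an adjusted p of 0.345 in limma. Without that naive pool the change was 0.30 with an adjusted p of 0.0344, and with housekeeping scaling it was -0.28 with an adjusted p of 0.0981.

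Mlh3, best known for crossovers in meiosis, had GC levels of 6.49, 6.09 and 5.09 TPM. Naive levels were 6.63, 6.24 and 5.06 TPM. The groups overlapped throughout, at a mean of 5.89 ± 0.723 TPM and 5.98 ± 0.817 TPM. The log2 change was -0.02 (95% interval -0.35 to 0.32), with an adjusted p of 0.924 in limma. It was -0.44 with an adjusted p of 0.0367 in limma under housekeeping scaling, where the median log2 change of all tested genes was -0.41.

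Pms2 was also compared with the other MutL genes within each pool. The ratio of Pms2 to Pms1 was 3.23, 3.45 and 3.79 in GC and 3.09, 2.60 and 2.30 in naive cells. The ratio of Pms2 to Mlh3 was 4.52, 5.16 and 6.26 in GC and 3.28, 2.89 and 4.41 in naive cells. In both ratios the GC pools lay above the naive pools, by a log2 difference of 0.40 and 0.60 (exact permutation p = 0.1 for each, the smallest the design allows, and 0.133 after adjustment). The closest GC and naive pools differed by 0.07 and 0.04 on that scale. Pms2 made up 67.7% of the MutL sum of 45.6 ± 0.907 TPM in GC and 59.8% of the sum of 34.6 ± 3.01 TPM in naive cells. The ratio of Msh6 to Pms2, given as a description, was 3.22, 2.92 and 2.90 in GC and 1.06, 1.31 and 0.891 in naive cells. These pools did not overlap.

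**Figure D3:**
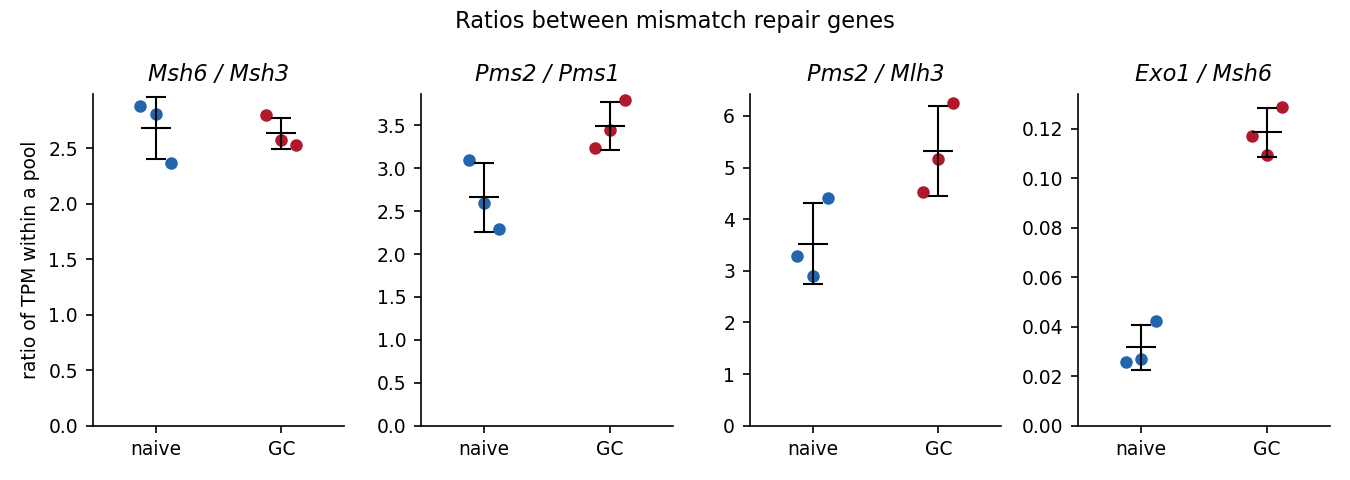
Ratio of TPM between pairs of mismatch repair genes within each pool (vertical axis, from 0), for naive (blue) and GC (red) pools, with the mean and SD. The ratio of Msh6 to Msh3 overlaps between populations, whereas those of Pms2 to Pms1, Pms2 to Mlh3 and Exo1 to Msh6 are higher in each GC pool than in each naive pool.

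The order of the genes by level differed between the populations. In GC B cells it was Msh6, Msh3, Pms2, Exo1, Pms1 and Mlh3, and no neighbors in that order overlapped in their pools. In naive B cells it was Msh6, Pms2, Msh3, Pms1, Mlh3 and Exo1. There the pools of Msh6 and Pms2 overlapped, as did those of Msh3 and Pms1. Exo1 was the lowest gene in naive cells, with Mlh3 8.64-fold above it, and ranked above Pms1 and Mlh3 in GC cells. TPM accounts for transcript length, so levels of different genes can be set side by side. Other differences in how well each gene is measured were not tested.

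The genes are annotated on GRCm38.p6, the major build on which the reads were quantified, as follows. Msh6 (ENSMUSG00000005370) is at chr17:87975050-87990892 on the plus strand and Msh3 (ENSMUSG00000014850) at chr13:92211878-92355004 on the minus strand. Pms2 (ENSMUSG00000079109) is at chr5:143909901-143972745 on the plus strand, Pms1 (ENSMUSG00000026098) at chr1:53189187-53297031 on the minus strand and Mlh3 (ENSMUSG00000021245) at chr12:85234466-85270647 on the minus strand. Exo1 (ENSMUSG00000039748) is at chr1:175880768-175911396 on the plus strand. Pms2 and Pms1 each have a protein-coding gene on the opposite strand whose 5′ end lies within 1000 bases of theirs. The surroundings of Msh3 are not reported here. These neighbors were chosen by position after the values of the 6 genes had been seen.

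Aimp2, which encodes a scaffold of the aminoacyl-tRNA synthetase complex, starts 62 bases from Pms2. It was at 34.8, 36.2 and 31.7 TPM in GC and at 27.5, 26.5 and 25.2 TPM in naive pools, a log2 change of 0.36 (adjusted p of 0.00481 in limma). Ormdl1, a regulator of sphingolipid synthesis, starts 64 bases from Pms1 and was at 24.5, 26.0 and 23.1 TPM in GC and 24.9, 23.3 and 23.4 TPM in naive pools. Its log2 change was 0.04, with an adjusted p of 0.641 in limma, and its pools overlapped. Aimp2, like Pms2, passed the test, and Ormdl1, like Pms1, did not. Since 65.6% of all tested genes passed in either direction, a shared call of 2 genes is not unusual. The change of Aimp2 lay between the quartiles of all tested genes, -0.49 and 0.59. Under housekeeping scaling Pms2 did not pass (log2 change 0.09, adjusted p of 0.464 in limma), and no such value is given for Aimp2. A link between neighbors was not tested.

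**Figure D4:**
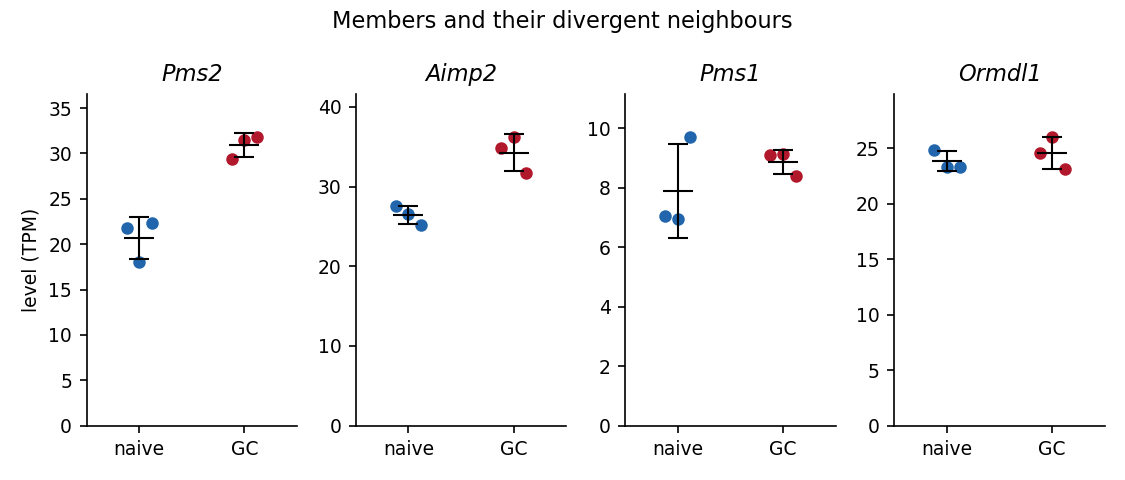
Level in TPM (vertical axis, from 0, a separate scale for each gene) of Pms2 and Pms1 and of the coding gene that starts within 1000 bases on the opposite strand, in naive (blue) and GC (red) pools, with the mean and SD. GC pools lie above naive pools for Pms2 and Aimp2, whereas they overlap for Pms1 and Ormdl1.

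Of the other genes of mismatch repair, 19 of 20 tested were higher in GC B cells, 0 were lower and 1 did not pass the test. Their median log2 change was 1.47. Over all tested genes, 35.5% were higher and 30.1% lower. With FPKM as deposited, median-of-ratios or quantile scaling, 18 of the list were higher and 0 lower. Under housekeeping scaling, 15 of the list were higher and 3 were lower, the latter being Pold4, Setd2 and Ssbp1. That scaling gave 2436 higher and 6719 lower over all 12785 tested genes. The list was chosen with earlier results of these data known, so its direction is not independent evidence. The largest change was that of Lig1, the ligase that seals the repaired strand, at 199 ± 9.93 TPM in GC and 17.2 ± 0.654 TPM in naive cells (11.6-fold, log2 change 3.46). Polh, the polymerase of hypermutation at A:T pairs, was at 96.5 ± 4.54 and 10.3 ± 0.934 TPM (log2 change 3.11). Rfc5, a subunit of the clamp loader, was at 123 ± 9.78 and 20.5 ± 1.95 TPM (log2 change 2.53). All 3 had an adjusted p of 1.95e-06 or less in limma. The smallest changes were those of Ssbp1, a mitochondrial single-strand binding protein (log2 change 0.00, adjusted p of 0.989 in limma), Setd2, the histone H3K36 methyltransferase whose mark recruits Msh6 (0.19, adjusted p of 0.048) and Pold4, a subunit of polymerase delta (0.31, adjusted p of 0.00101). With housekeeping scaling they were at -0.48, -0.30 and -0.18. Lig1 overlaps Zswim9, and since the library kit named in the labels is not stated to mark strand, reads in the overlap cannot be told apart.

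Base excision repair acts on the same U:G lesions by another route, in which the uracil is cut out first. Of its 10 genes, 8 were higher, 1 was lower and 1 did not pass the test, with a median log2 change of 0.83. Over all tested genes, 35.5% were higher and 30.1% lower. Housekeeping scaling gave 6 higher and 2 lower (Lig3 and Smug1), beside 2436 higher and 6719 lower over all 12785 tested genes. Mbd4, a glycosylase for U:G and T:G pairs, was at 142 ± 6.07 TPM in GC and 19.5 ± 1.91 TPM in naive cells (log2 change 2.81). Xrcc1, a scaffold for break sealing, was at 209.7 ± 5.12 and 34.0 ± 1.82 TPM (2.59), and Ung, the main uracil glycosylase, at 56.7 ± 6.01 and 9.37 ± 1.11 TPM (2.48). Each had an adjusted p of 4.77e-06 or less in limma. At the other end, Smug1, a backup uracil glycosylase, fell by 0.76 on the log2 scale (5.51 ± 0.506 against 10.02 ± 0.824 TPM, adjusted p of 0.000989 in limma), Lig3 changed by -0.07 (adjusted p of 0.689) and Polb by 0.28 (adjusted p of 0.0155), and Polb turned to -0.19 with housekeeping scaling. Mbd4 overlaps Ift122, Ung overlaps Alkbh2 and Lig3 overlaps Rffl, with the same limit on reads in the overlap.

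**Figure D5:**
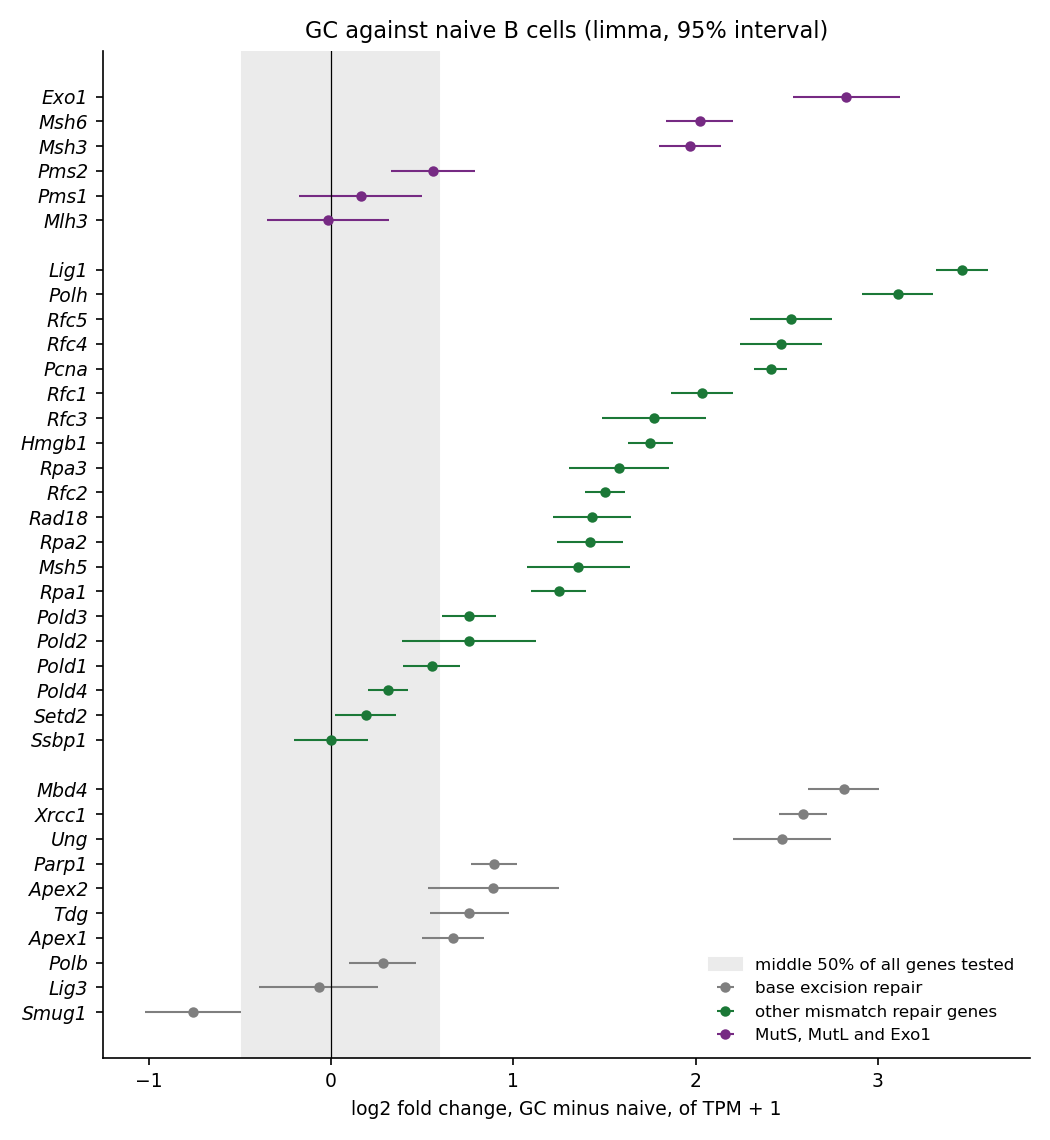
Log2 fold change of TPM + 1, GC minus naive, with its 95% interval from limma (horizontal axis), for the 6 genes (purple), the other mismatch repair genes (green) and base excision repair genes (gray), with the middle 50% of all tested genes shaded. Exo1, Msh6 and Msh3 lie to the right of the shaded range, and Pms2, Pms1 and Mlh3 lie within it.

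Genes of cycling cells are given as a measure of proliferation because mismatch repair genes are also used in replication. All of those listed were higher in GC B cells, where 35.5% of all tested genes were higher. The 20 genes summed to between 3554 and 3643 TPM in GC pools and 224.8 and 237 TPM in naive pools, with a median log2 change of 4.64. Mki67 was at 228 ± 1.04 TPM in GC and 0.785 ± 0.107 TPM in naive cells, and Top2a at 408 ± 15.4 and 4.50 ± 0.570 TPM. The difference in cycling therefore moved with the difference between the populations and cannot be told apart from it.

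For each repair gene, the closest profiles were sought among tested genes with a symbol. Distance was that between values of log2(TPM + 1) over the 6 pools, centered on each gene's mean. The added 1 shrinks changes at low levels, so genes of unlike fold can lie close. The genes found describe likeness over these 6 pools, dominated by the difference between the populations. Nearest Msh6 were Rev1, a translesion polymerase (distance 0.0616), the clamp loader gene Rfc1 (0.0904) and Parp8 (0.0918). Rev1 was at 51.3 ± 0.743 TPM in GC and 11.7 ± 1.17 TPM in naive cells. Msh3 was nearest to Pcbp4, Rab39b and 4930427A07Rik, and Pms2 to Uqcrfs1, Mrpl15 and E130012A19Rik. Pms1 was nearest to 4933437F05Rik, Lamtor2 and Eif2b4, and Mlh3 to Mapk9, Zfp942 and Zfp763. Exo1 was nearest to Dbf4, Mcm2 and Kif18a, genes of replication start and of mitosis, at larger distances (0.176 to 0.201). Without the added 1, Mcm2 was 7.92-fold higher in GC, beside 15.9-fold for Exo1.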

How the data were processed

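RNA-Seq was measured in 3 pools of GC and 3 pools of resting B cells. The authors demultiplexed reads with CASAVA 1.8, checked their quality with FastQC, removed adapters with cutadapt 1.9, quantified reads with RSEM 1.2.25 on the mouse transcriptome (NCBIm38, Ensembl release 75, mean fragment length 180, SD 50), and deposited 1 FPKM value for each gene in each pool, to 2 decimals. The submitters' processing notes also name edgeR, whose role is not given in the sources used here. FPKM were rescaled to TPM (sum 1000000 per pool). Because the values are not counts, the populations were tested on log2(TPM + 1) by limma 3.58.1 (R 4.3.3; lmFit and trended eBayes). A gene entered when 3 or more pools reached 1 TPM, which left 12785, and p-values were adjusted over all of these by Benjamini-Hochberg, with 0.05 as threshold. Within-pool ratios were compared with exact two-sided permutation tests over pools.

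Symbols matched 33398 of 39179 rows. Coordinates and start-site sequences came from RefSeq (GRCm38.p6), and windows of 4 of the 6 genes were searched. The limma step was tested on simulated data. Depth is an estimate: 66.2% to 70.3% of low values fell within 0.15 of a whole read, so no count test was made. Differences between pools may include technical spread.

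Members and lists were chosen with earlier results of these data known. Named genes were the 6, the 3 largest and 3 smallest changes of each other repair list and any gene that failed the filter, Mki67, Top2a, Fas, Bcl6, and for each of the 6 the 3 nearest profiles. Alternatives covered the pseudocount (0.1, 0.01), the filter, FPKM as deposited, quantile, median-of-ratios and housekeeping scaling, eBayes without a trend, the replicate number as a block, and leaving out each pool. Some genes are not reported here. Python 3.11.15, numpy 2.4.6, pandas 2.3.3, scipy 1.17.1 and matplotlib 3.10.9 were used for other steps.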

Additional observations from a re-analysis of the deposited data

How the results depend on the processing

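Of 95 recomputed log2 changes of the 6 genes, 88 kept their direction and side of the threshold. The ratio tests cannot pass the threshold in this design. Housekeeping scaling gave log2 changes of 0.0870 for Pms2, -0.44 for Mlh3 and -0.28 for Pms1, and the number of genes called was 9155 (2436 higher and 6719 lower in GC). Quantile scaling gave 47.9% of calls as higher in GC. Leaving out 1 pool gave Pms2 between 0.47 and 0.61, Mlh3 between -0.11 and 0.0697, Pms1 between 0.0880 and 0.30, and the log2 difference of the Msh6 to Msh3 ratio between -0.11 and 0.0300. Mlh3 turned positive without GC pool 3, naive pool 1 or naive pool 2, and Pms1 passed the test only without naive pool 3 (0.30). Adding 1 to both values turned the Msh6 to Msh3 difference to 0.0531. The cause was not tested. Msh6, Msh3 and Exo1 kept their calls in every alternative that gave a value. Exo1 could not be tested when all 6 pools had to reach 1 TPM. Leaving out a pool gave 7656 to 8101 calls over all genes, and the smallest exact p for ratios then is 0.2.

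The numbers 1 to 3 of the pools are not stated to pair them. Correlations of deviations between same-numbered pools were 0.0225 to 0.0830, and 5 of 6 pools correlated best with their own number. With the replicate block, 7960 genes were called, and adjusted p in limma was 9.80e-05 for Msh6, 0.000115 for Msh3, 0.000149 for Exo1, 0.00807 for Pms2, 0.404 for Pms1 and 0.905 for Mlh3. No call of the 6 changed.

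The estimated depth, with about 28 to 40 reads of Exo1 in naive pools, limits the precision of its fold. Proliferation, the sort and the population cannot be told apart in this design.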

Other observations

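The meiotic MutS homologs were measured as well. Msh5 had GC levels of 23.0, 26.5 and 24.9 TPM and naive levels of 7.87, 10.5 and 9.02 TPM, a log2 change of 1.36 (SE 0.117, adjusted p of 9.10e-05 in limma). Its GC pools were all above its naive pools. Msh4, with which Msh5 pairs in meiosis, was at 0.124 TPM in GC pool 1, listed at 0 in the other 5 pools, and not tested.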
